A study of Mus musculus with 8 samples.

Results

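Prostaglandins and leukotrienes are signalling lipids made from arachidonic acid by a short chain of enzymes. The 10 genes described here code for the core of that chain in the mouse, from the phospholipase that frees the fatty acid (Pla2g4a) through the cyclooxygenases (Ptgs1, Ptgs2) and 3 terminal prostanoid synthases (Ptges, Hpgds, Tbxas1) to the leukotriene branch (Alox5, Alox5ap, Lta4h, Ltc4s). They were listed by symbol and role, with earlier results of these data known but no measured value in the rule, and all 10 were found among the 55385 genes of the count table. All 10 also passed the filter on low counts, which left 17537 genes.

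RNA sequencing of primary cultured microglia asked how IgG, the main antibody class of blood, changes these brain macrophages. The cultures came from the neocortex and hippocampus of newborn wild-type mice, with cells of several brains pooled in a flask and the meninges removed. After 12 days in medium with 10% fetal bovine serum, microglia were shaken off the mixed culture and kept for 3 days in new plates. From DIV15 (15 days in vitro), 4 cultures received 10 µg/ml IgG for 24 h, and 4 controls, labelled untreated in the sample records and treated with phosphate-buffered saline per the study's methods, did not. Each control carries the same date in its label as the IgG library of the same replicate number, so the libraries form 4 pairs, although the labels do not say what was done on that date. The p-values below measure the spread between these samples, which may be technical in part.

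Cytosolic phospholipase releases arachidonic acid from membranes, and a cyclooxygenase turns it into the unstable prostaglandin H2. Each cell type then makes the products for which it has a terminal synthase: prostaglandin E2, prostaglandin D2 or thromboxane A2. In the other branch, 5-lipoxygenase and its partner FLAP make leukotriene A4, which a hydrolase converts to the chemoattractant leukotriene B4 and a synthase to leukotriene C4, the parent of the cysteinyl leukotrienes. In brain these lipids are known for their parts in fever, pain and blood vessel tone, and microglia are a known site of cyclooxygenase-1 and of hematopoietic prostaglandin D synthase.

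Library totals ran from 21287816 to 23703216 counts. Levels are in CPM, counts per 1000000 of the TMM-scaled library total. On this scale 3 counts, the most that a count of 0 allows, were 0.124 CPM (control replicate 1) to 0.147 CPM (IgG replicate 3). These limits cover counting error only. Of 12 microglial marker genes, 11 passed the filter, and their summed level was 7089 to 7845 CPM in control and 7948 to 8431 CPM in IgG libraries. At an unadjusted p under 0.05 (edgeR) 4 markers (Tmem119, Cx3cr1, Aif1, Fcrls) were higher and 0 lower, against 7.01% of all genes. With the pairs as a block in the fit, P2ry12 and Csf1r were also higher at that level, against 10.2% of all genes. In the same fit Aif1 and Fcrls passed at an adjusted p of 0.0331 and 0.0329 (edgeR), against 0.393% of all genes. Siglech was at 0 to 9 counts, and the homeostatic markers P2ry12 and Tmem119 were at 4.01 to 11.8 and 4.37 to 7.28 TPM (counts divided by exon length and scaled to a sum of 1000000). Most markers of other cells known to make leukotrienes were nearly absent: of 8 mast cell markers 6 were at 3 counts or fewer in every library, with Mcpt4, Cma1, Fcer1a and Ms4a2 at 0 throughout. The mast cell sum was 3.86 to 5.77 CPM in control and 3.93 to 5.94 CPM in IgG libraries. Most of it was Kit, at 3.47 to 5.64 CPM, beside Hdc at 0.124 to 0.933 CPM. Of 8 neutrophil markers, S100a9, Elane, Mpo and Ly6g were at 0 in every library, and the sum was 0.664 to 1.67 CPM in control and 1.03 to 2.23 CPM in IgG libraries, most of it S100a8. Summed markers of border-associated macrophages were at 218 to 310 CPM in control and 311 to 443 CPM in IgG libraries, although Lyve1 was at 0 to 5 counts and Cd163 at 0 to 3. Of these 7 markers 5 were tested, and Cbr2 and Ms4a7 were higher at an unadjusted p under 0.05 (edgeR), against 7.01% of all genes. Ms4a7 made up most of the sum, averaging 201 CPM without and 306 CPM with IgG. Mrc1 and Pf4 did not pass, at log2 fold changes of 0.24 and 0.19 (edgeR, unadjusted p = 0.356 and 0.319). F13a1 was at -0.28 (edgeR, unadjusted p = 0.521) and was higher in 0 of 4 pairs. With the block Ms4a7 passed at an adjusted p of 0.0381 (edgeR), against 0.393% of all genes. The share of mitochondrial counts was 2.32% to 2.41% in controls and 4.85%, 2.21%, 5.59% and 1.97% in IgG replicates 1 to 4. IgG replicates 1 and 3 were thus above, and 2 and 4 below, every control.

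The 10 genes spanned about 2 orders of magnitude in level, and the order ran from Hpgds, for prostaglandin D2, and the FLAP gene Alox5ap down to Ptgs2. Levels between genes are given in TPM, as mean ± SD over the 8 libraries. The length used is that of all annotated exons of a gene merged, not that of the transcripts expressed, so the order depends on it. Merged exons came to 1420 bases for Alox5ap and 9094 for Tbxas1. In CPM Tbxas1 was the higher of these, with a control mean of 106 against 21.8. The part of exon length in the order was not tested. Hpgds led with 64.9 ± 5.97 TPM, above 89.8% of the genes tested. Alox5ap followed with 31.9 ± 5.21 TPM, Tbxas1 with 23.3 ± 2.28 TPM and Lta4h with 13.1 ± 1.05 TPM. These 4 genes were above the median of the genes tested, and Pla2g4a lay close to it, above 50.4% of them.

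Below them came Pla2g4a with 8.92 ± 1.18 TPM, Ptgs1 with 6.60 ± 0.820 TPM and Ltc4s with 2.73 ± 0.793 TPM. Ptges with 1.59 ± 0.279 TPM, Alox5 with 0.989 ± 0.248 TPM and Ptgs2 with 0.571 ± 0.169 TPM closed the order, and Ptgs2 was above no more than 7.33% of the genes tested. Between 5 of the 9 neighbouring steps the ranges over libraries did not overlap. The ranges did overlap between Alox5ap and Tbxas1, between Pla2g4a and Ptgs1, between Ltc4s and Ptges, and between Alox5 and Ptgs2, so these neighbours were not separated beyond their spread. Within a library, Pla2g4a nevertheless stood above Ptgs1 in 8 of 8, and each of the other 3 pairs kept its order in 7 of 8.

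**Figure D1:**
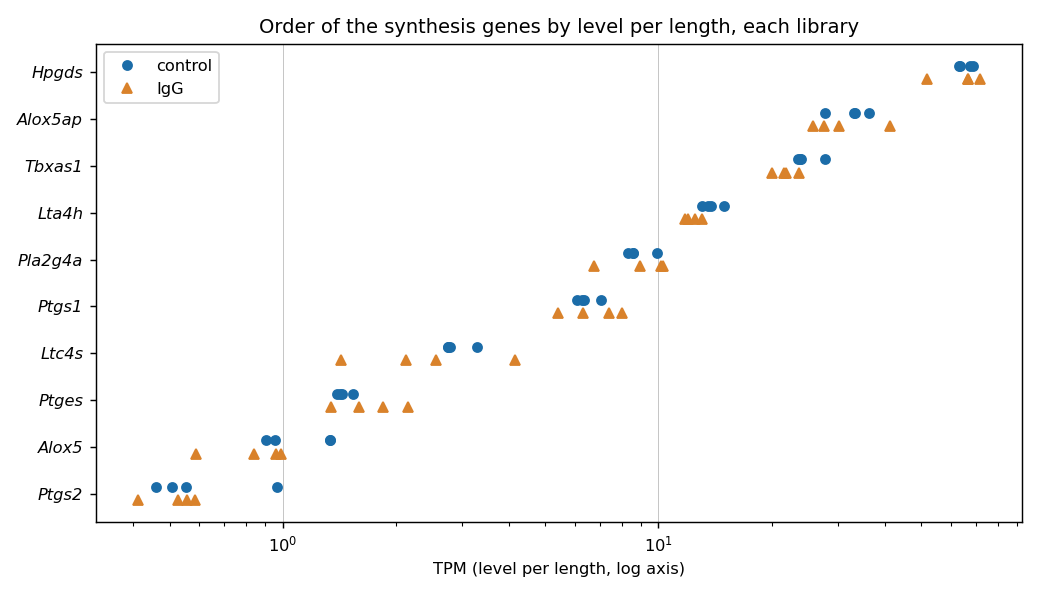
Level of each of the 10 genes in TPM (x axis, log scale), with 1 point per library, circles for the 4 control and triangles for the 4 IgG libraries. Hpgds lies at 51.9 to 71.9 TPM and Ptgs2 at 0.412 to 0.965 TPM, and within each gene the control and IgG points lie among or beside each other.

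IgG moved none of the 10 genes past either threshold. By the study's criterion, an unadjusted p under 0.01 with an absolute log2 fold change over 0.5, edgeR's quasi-likelihood test called 0 of 10, against 0.844% of all genes tested. At a Benjamini-Hochberg adjusted p under 0.05 it called 0 of 10, and also 0% of all genes. At an unadjusted p under 0.05 it called 0 of 10, against 7.01% of all genes, and DESeq2, limma-voom and edgeR's likelihood ratio test called 0 of 10 at that level as well. By sign 5 genes were higher and 5 lower with IgG, of which Alox5ap turned from 0.08 to -0.02 when scaled by total counts alone, and their median log2 fold change was 0.03, beside 0.00 over all genes.

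Adding the pair as a block to the fit changed no call: 0 of 10 met the study's criterion, against 1.82% of all genes, 0 of 10 passed at an adjusted p under 0.05, against 0.393%, and 0 of 10 had an unadjusted p under 0.05, against 10.2%. For 6 of the 10, Hpgds, Alox5ap, Tbxas1, Lta4h, Pla2g4a and Ptgs1, the 95% interval of the change lay within 1.5-fold in either direction, in both fits. Of all genes tested, 56.5% had so narrow an interval, or 60.4% with the block. For Ptgs2, Ptges, Alox5 and Ltc4s the interval reached beyond 1.5-fold, so a change of that size in at least 1 direction lay within it. No gene of the 10 moved the same way in all 4 pairs, against 18.9% of all genes, and in none did the 2 groups fail to overlap, against 4.17%.

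**Figure D2:**
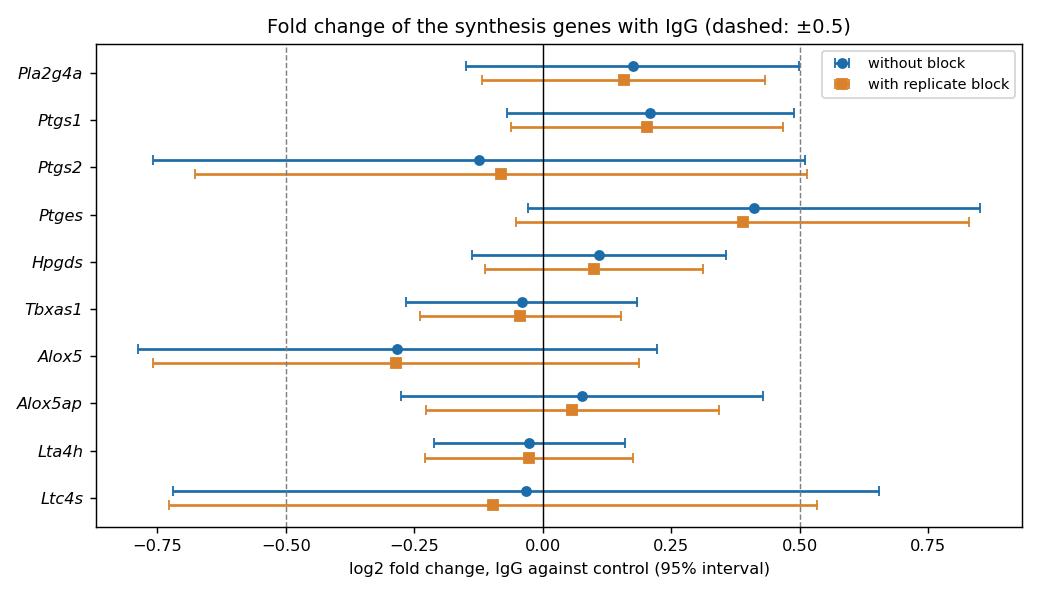
Log2 fold change of each gene, IgG against control (x axis), with its 95% interval, from edgeR without (circles) and with the replicate block (squares). All 20 intervals cross 0, and the 4 genes with the lowest counts, Ptgs2, Ptges, Alox5 and Ltc4s, have the widest.

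Pla2g4a (ENSMUSG00000056220, chr1:149829618-149961290, minus strand) codes for cytosolic phospholipase A2 alpha, which cuts arachidonic acid from membrane phospholipids. Coordinates here are of the mm10 build, as annotated in GENCODE M21. It was measured at 25.2, 25.6, 30.0 and 25.3 CPM in control replicates 1 to 4 and 35.2, 26.8, 35.0 and 22.9 CPM in IgG replicates 1 to 4. Control replicate 3 stood above the other controls, IgG replicates 1 and 3 were highest and IgG replicate 4 was the lowest of all, so the groups overlapped. The log2 fold change was 0.17 with a 95% interval of -0.15 to 0.50 (edgeR's quasi-likelihood test, adjusted p = 0.750). Without IgG replicate 4 it was 0.29, with an unadjusted p of 0.0344 and an adjusted p of 0.188 by edgeR, and over every library or pair left out it ranged from 0.048 (with the block, without pair 1) to 0.29.

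Both cyclooxygenases were present, with Ptgs1 well above Ptgs2. Ptgs1 (ENSMUSG00000047250, chr2:36230426-36252272, plus strand) codes for cyclooxygenase-1, the form known as constitutive, and Ptgs2 (ENSMUSG00000032487, chr1:150100031-150108227, plus strand) for cyclooxygenase-2, the form known to be induced by inflammatory stimuli. Ptgs2 lies on chromosome 1 next to Pla2g4a on the opposite strand. Per length, Ptgs1 exceeded Ptgs2 by 7.29 to 13.7 times in the 8 libraries, and Ptgs2 made up 6.79% to 12.1% of their sum, with the highest share in control replicate 3. The ratio of Ptgs1 to Ptgs2 had a median of 11.7 in control and 13.2 in IgG libraries and was higher with IgG in 3 of 4 pairs.

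Because these 2 genes carry out the same step at such different levels, their promoters are set side by side. The 300 bases run from 250 before to 50 after the transcription start given by RefSeq, from its GRCm38.p6 table, both on the plus strand. Capitals mark matches on either strand to TATAAA (the TATA box), to TTGCNNAA (C/EBP), to TGACG (the half-site of the cAMP response element), to GGGA followed after 4 bases by CC (NF-kB), and to GAAA that is repeated after 2 bases (interferon-stimulated response element).
Ptgs1, chr2:36230176-36230475: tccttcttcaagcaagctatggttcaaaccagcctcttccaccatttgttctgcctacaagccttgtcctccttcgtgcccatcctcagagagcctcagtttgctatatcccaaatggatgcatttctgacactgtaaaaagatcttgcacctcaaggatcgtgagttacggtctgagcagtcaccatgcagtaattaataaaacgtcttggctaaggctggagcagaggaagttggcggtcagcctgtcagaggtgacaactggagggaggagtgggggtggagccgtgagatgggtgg
Ptgs2, chr1:150099781-150100080: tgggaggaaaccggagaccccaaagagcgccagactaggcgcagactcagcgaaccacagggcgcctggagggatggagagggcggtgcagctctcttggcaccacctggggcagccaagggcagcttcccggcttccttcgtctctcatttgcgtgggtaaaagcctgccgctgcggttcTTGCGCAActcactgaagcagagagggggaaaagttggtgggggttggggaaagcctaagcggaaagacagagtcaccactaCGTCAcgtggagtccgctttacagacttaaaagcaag
In the Ptgs2 window the C/EBP letters begin 69 bases before the start and the reverse of the half-site, CGTCA, at base 14 after it, while none of these letters were found in the Ptgs1 window. The 5 motifs occurred in 13.6%, 10.8%, 20.9%, 20.8% and 3.45% of the 32544 windows in the table, in the order given. Of the 10 windows that covered 9 of the genes, with 2 for Pla2g4a, 2 held the TATA box (Tbxas1 and the second Pla2g4a window), 2 the C/EBP letters (Ptgs2 and Hpgds), 1 the half-site (Ptgs2), 2 the NF-kB letters (Lta4h and Alox5) and 0 the interferon-stimulated response element. A match is a description of letters, not of binding.

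Ptgs1 was measured at 11.2, 11.5, 12.9 and 11.3 CPM in control replicates 1 to 4 and 13.1, 14.6, 15.5 and 11.2 CPM in IgG replicates 1 to 4. IgG replicates 1 to 3 were each above their paired control and IgG replicate 4 was marginally below its own. The log2 fold change was 0.21 with a 95% interval of -0.07 to 0.49 (edgeR, adjusted p = 0.704), and with the replicate block it was 0.20 (adjusted p = 0.567). Without IgG replicate 4 it was 0.29, with an unadjusted p of 0.0226 and an adjusted p of 0.172 by edgeR, and without IgG replicate 3 it was 0.14. The exons of Ptgs1 overlap those of Gm43621 on the other strand by 148 bases, and since the use of strand in counting is not given in the sources used here, reads there cannot be assigned to either gene with certainty.

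Ptgs2 rested on 22 to 50 counts per library. Its levels were 1.20, 0.992, 2.09 and 1.08 CPM in control replicates 1 to 4 and 1.29, 1.26, 1.37 and 1.00 CPM in IgG replicates 1 to 4. Control replicate 3 stood well above the other 3 controls, and the 4 IgG libraries lay inside the control range. Against control, IgG gave Ptgs2 a log2 fold change of -0.12 with a 95% interval of -0.76 to 0.51, or 0.591 to 1.42 as a fold (edgeR, adjusted p = 0.904). Its sign rested on control replicate 3, without which it was 0.17 with a p of 0.507 by edgeR.

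**Figure D3:**
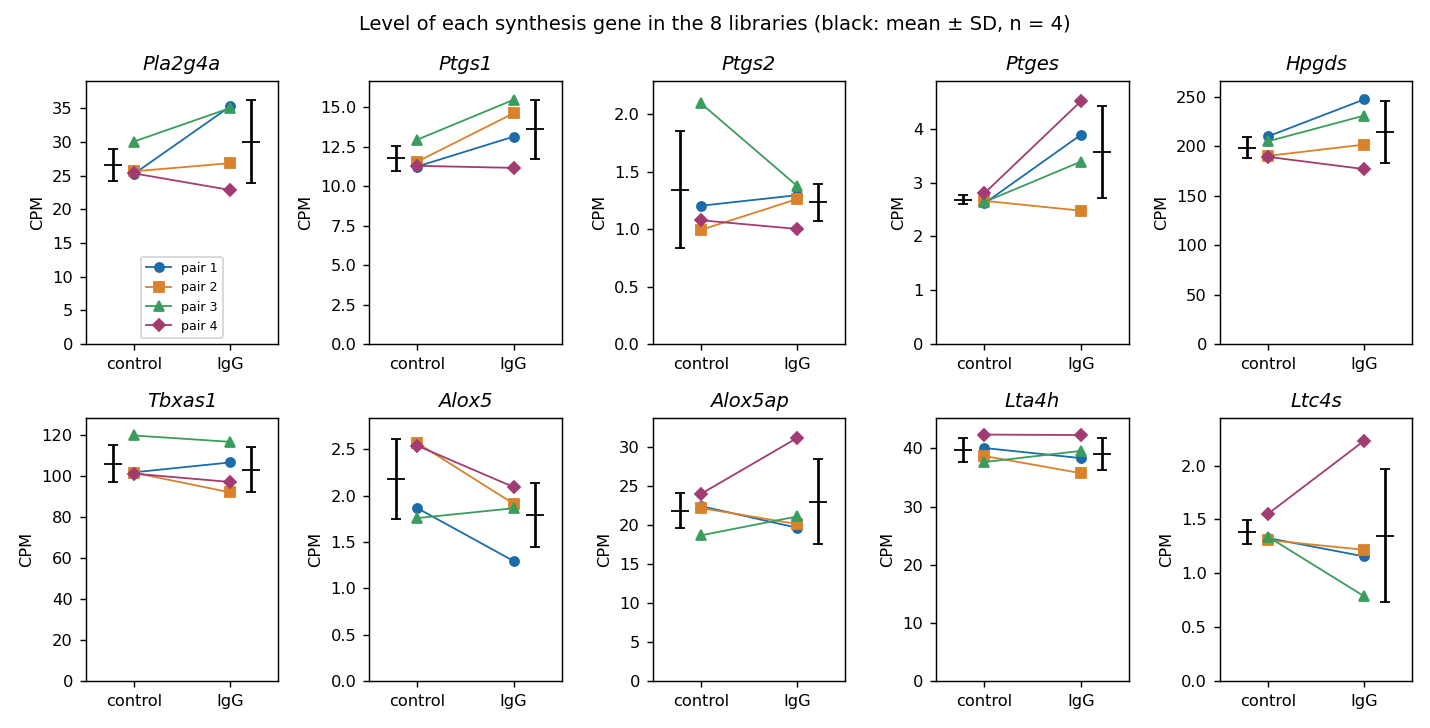
Level of each gene in CPM (y axis, starting at 0) in the control and IgG library of each pair, joined by a line, with the mean ± SD of each group (n = 4) in black. Lines of the same gene cross or run in opposite directions in most panels, and Ptgs2 shows 1 control library, replicate 3, above the rest at 2.09 CPM.

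Among the 3 terminal prostanoid synthases of the 10 genes, Hpgds was highest and Ptges lowest. Hpgds (ENSMUSG00000029919, chr6:65117293-65144908, minus strand) codes for hematopoietic prostaglandin D synthase, Tbxas1 (ENSMUSG00000029925, chr6:38875404-39084585, plus strand) for thromboxane A synthase, and Ptges (ENSMUSG00000050737, chr2:30889471-30929863, minus strand) for microsomal prostaglandin E synthase-1, which is known to act with cyclooxygenase-2. Of the summed TPM of the 3 genes, Hpgds took 69.7% to 75.2%, Tbxas1 22.9% to 28.8% and Ptges 1.47% to 2.91% in the 8 libraries. These ranges did not overlap. The Ptges share was highest in IgG replicate 4, and the ratio of Tbxas1 to Ptges was lower with IgG in 4 of 4 pairs, with medians of 16.7 in control and 13.4 in IgG libraries, a ratio that was not tested.

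The promoter window of Hpgds, the most abundant gene of the 10, is shown for comparison with Ptgs2, since these were the 2 windows with the C/EBP letters. It lies on the minus strand, is read 5′ to 3′ in the direction of transcription, and has the match in capitals, beginning 176 bases before the start.
Hpgds, chr6:65144681-65144980: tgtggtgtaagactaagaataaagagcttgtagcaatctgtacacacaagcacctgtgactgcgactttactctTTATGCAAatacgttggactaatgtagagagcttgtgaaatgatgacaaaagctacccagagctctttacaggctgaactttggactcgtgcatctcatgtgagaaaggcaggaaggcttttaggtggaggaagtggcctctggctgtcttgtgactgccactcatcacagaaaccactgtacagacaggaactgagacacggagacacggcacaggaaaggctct

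Hpgds was measured at 209.8, 190.2, 205 and 189 CPM in control replicates 1 to 4 and 247, 202, 231 and 177 CPM in IgG replicates 1 to 4. IgG replicates 1 to 3 were above their paired controls and IgG replicate 4 was the lowest of the 8 libraries, so the groups overlapped. Fitted over the 8 libraries, its log2 fold change was 0.11 with a 95% interval of -0.14 to 0.36, which as a fold is 0.908 to 1.28 (edgeR, adjusted p = 0.787). It was 0.034 without IgG replicate 1 and 0.19 without IgG replicate 4 (edgeR, unadjusted p = 0.761 and 0.0544). The differences within pairs 1 to 4 were 0.24, 0.08, 0.17 and -0.10 in log2 CPM. The trend of each library with GC content and transcript length came to 0.28, 0.01, 0.27 and -0.21 in the same pairs, and after its removal the log2 fold change with the block was 0.01.

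Tbxas1 was measured at 102, 102, 119.7 and 101 CPM in control replicates 1 to 4 and 107, 91.9, 117 and 97.0 CPM in IgG replicates 1 to 4. Replicate 3 was the highest library in both groups, and control replicates 1, 2 and 4 lay within 1 CPM of each other. The change with IgG was -0.04 on the log2 scale with a 95% interval of -0.27 to 0.18, or 0.832 to 1.13 as a fold (edgeR, adjusted p = 0.910). Its exons overlap those of Gm42962, on the other strand and at 48 counts in all 8 libraries together, by 144 bases.

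Ptges had the largest fitted change of the 10. It rested on 57 to 99 counts and was measured at 2.61, 2.66, 2.64 and 2.80 CPM in control replicates 1 to 4 and 3.88, 2.48, 3.39 and 4.51 CPM in IgG replicates 1 to 4. The 4 controls were closely spaced, at 2.68 ± 0.0834 CPM (mean ± SD, n = 4), IgG replicates 1, 3 and 4 lay above all of them and IgG replicate 2 below all of them. The log2 fold change was 0.41 ± 0.20 (SE) with a 95% interval of -0.03 to 0.85, higher in 3 of 4 pairs, at an unadjusted p of 0.0641 and an adjusted p of 0.692 by edgeR's quasi-likelihood test. With the replicate block it was 0.39, with an adjusted p of 0.528.

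Ptges met the study's criterion in 1 of the 3 settings without IgG replicate 2. With that library alone left out the log2 fold change was 0.55 with an unadjusted p of 0.00935, which meets the criterion, and an adjusted p of 0.2998 by edgeR. Without pair 2 it was 0.55 with an unadjusted p of 0.0251, or 0.54 with 0.0349 with the block, outside the criterion. Over all settings but the first of these the unadjusted p ranged from 0.0251 to 0.257. The log2 fold change was lowest at 0.27, with the block and without pair 4, and was 0.28 without IgG replicate 4. The genes whose log2 CPM over the 8 libraries was most like that of Ptges were Ggh (Pearson r = 0.98), Uqcrc1 (0.97), Ndufaf5 (0.97), Bscl2 (0.97) and Rnpepl1 (0.96). These correlations are descriptive, over libraries that share depth, date and RNA make-up.

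In the leukotriene branch FLAP and leukotriene A4 hydrolase transcripts were above 80.1% and 59.6% of the genes tested, and 5-lipoxygenase above 12.8%. Alox5 (ENSMUSG00000025701, chr6:116410077-116461178, minus strand) codes for 5-lipoxygenase, the enzyme that starts the branch, and Alox5ap (ENSMUSG00000060063, chr5:149264767-149288153, plus strand) for FLAP, the membrane protein that presents arachidonic acid to it. Per length, Alox5ap exceeded Alox5 by 25.0 to 43.9 times, with medians of 29.0 in control and 37.9 in IgG libraries, and this ratio was higher with IgG in 4 of 4 pairs. The ratio was looked at after the values of the genes were known and was not tested.

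Alox5 rested on 28 to 59 counts and was measured at 1.87, 2.57, 1.76 and 2.54 CPM in control replicates 1 to 4 and 1.29, 1.91, 1.87 and 2.09 CPM in IgG replicates 1 to 4. Control replicates 2 and 4 were the highest libraries and IgG replicate 1 the lowest, and IgG replicates 2 to 4 lay within the control range. For Alox5 the fitted log2 fold change was -0.28 with a 95% interval of -0.79 to 0.22, lower in 3 of 4 pairs (edgeR, adjusted p = 0.742), and it ranged from -0.40 (with the block, without pair 3) to -0.15 (without IgG replicate 1) when libraries or pairs were left out.

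Alox5ap was measured at 22.4, 22.2, 18.7 and 24.0 CPM in control replicates 1 to 4 and 19.7, 20.1, 21.1 and 31.2 CPM in IgG replicates 1 to 4. IgG replicate 4 stood alone above the other 7 libraries, which lay between 18.7 and 24.0 CPM. The log2 fold change was 0.08 with a 95% interval of -0.27 to 0.43 (edgeR, adjusted p = 0.895), and without IgG replicate 4 it was -0.10 with a p of 0.338. Its exons overlap by 189 bases those of the antisense gene Gm19719, which had 3115 counts over the 8 libraries and was also highest in IgG replicate 4, at 22.5 CPM against 14.9 to 18.4 CPM elsewhere. The part of these overlapping reads in the Alox5ap level was not tested.

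Lta4h (ENSMUSG00000015889, chr10:93453411-93484875, plus strand), which makes leukotriene B4, was the steadiest gene of the 10. It was measured at 40.1, 38.7, 37.6 and 42.4 CPM in control replicates 1 to 4 and 38.3, 35.7, 39.6 and 42.3 CPM in IgG replicates 1 to 4. The highest of the 8 libraries was 1.19 times the lowest, and control and IgG libraries were interleaved. IgG against control gave a log2 fold change of -0.03 with a 95% interval of -0.21 to 0.16, or 0.864 to 1.117 as a fold (edgeR, adjusted p = 0.933).

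Ltc4s (ENSMUSG00000020377, chr11:50236461-50238616, minus strand), which makes leukotriene C4, was the most variable in the IgG group. It rested on 16 to 49 counts and was measured at 1.33, 1.31, 1.34 and 1.55 CPM in control replicates 1 to 4 and 1.16, 1.22, 0.785 and 2.23 CPM in IgG replicates 1 to 4. Controls lay close together, whereas IgG replicate 3 was the lowest and IgG replicate 4 the highest of the 8 libraries. On the log2 scale the fitted change was -0.03 with a 95% interval of -0.72 to 0.65, or 0.607 to 1.57 as a fold (edgeR, adjusted p = 0.979).

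The differences of Ltc4s within pairs 1 to 4 were -0.19, -0.10, -0.71 and 0.50 in log2 CPM. Ltc4s has a GC content of 60.7%, the highest of the 10, and 1014 bases of exon, the fewest. The trend of each library with GC content and length came to -0.42, -0.02, -0.47 and 0.27 for this gene in the same pairs. Its exons overlap those of the antisense gene Gm26542, at 634 counts over the 8 libraries, by 268 bases.

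**Figure D4:**
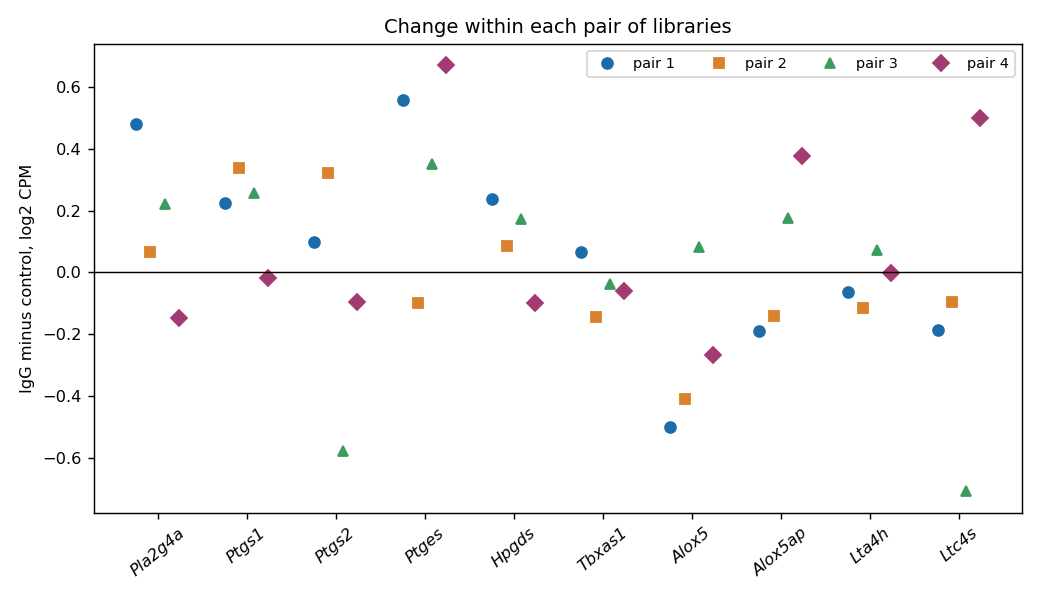
Difference in log2 CPM between the IgG and the control library of each pair (y axis) for the 10 genes, with 1 marker per pair. No gene has its 4 markers on the same side of 0, and pair 4 lies below 0 for Hpgds and Pla2g4a where pairs 1 to 3 lie above it.

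Pla2g4a, Ptgs1 and Hpgds were higher with IgG in pairs 1 to 3 and lower in pair 4. Across 12472 genes, the change in pair 4 rose with GC content (Spearman's rho 0.40) and fell with exon length (-0.51), whereas in pairs 1 and 3 it fell with GC content (-0.48 and -0.48) and rose with length (0.25 and 0.26), and in pair 2 both were near 0 (-0.03 and -0.03). For Pla2g4a these trends came to 0.25, 0.00, 0.23 and -0.19 in pairs 1 to 4, but for Ptgs1 to -0.03, -0.01, -0.06 and 0.07, the other way. After their removal the differences in pairs 1 to 4 were 0.23, 0.06, -0.0063 and 0.04 for Pla2g4a, -0.04, 0.08, -0.09 and 0.11 for Hpgds, and 0.25, 0.35, 0.32 and -0.09 for Ptgs1. The part of these trends in the changes was not tested. The values of these correlations are across genes, which are not independent replicates.

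The 4 labelled dates did not differ beyond the spread for any of the 10 genes. The test of the 3 date terms, by edgeR with the Benjamini-Hochberg adjustment, called 0 of 10 at an adjusted p under 0.05, against 0.975% of all genes. The smallest unadjusted p was 0.0943, for Alox5ap. In control libraries alone the highest level was 1.07 (Ptges) to 2.11 (Ptgs2) times the lowest. In these bulk samples, fewer cells that use a gene and less RNA per cell cannot be told apart.

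The other genes of the pathway were taken from 6 lists, of arachidonic acid release, its return to phospholipids, other prostanoid synthases, other lipoxygenases and cysteinyl leukotriene enzymes, transport and breakdown, and receptors. Of 70 genes, 40 passed the filter. At an adjusted p under 0.05 edgeR called 0 of 40, with and without the replicate block. At an unadjusted p under 0.05 it called 8 of 40, of which 6 were higher and 2 lower, against 7.01% of all genes, and 9 with the block, 7 higher and 2 lower, against 10.2%. The study's criterion was met by 1 of 40 in both fits, Ptgdr2, against 0.844% and 1.82% of all genes, and the median log2 fold change of the 40 was -0.02. The 2 groups did not overlap for 7 of the 40, against 4.17% of all genes. In all 4 pairs 16 of the 40 moved the same way, 10 higher and 6 lower, against 18.9% of all genes.

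Ptgdr2 (ENSMUSG00000034117, chr19:10937160-10942511, plus strand) codes for the prostaglandin D2 receptor known as DP2 or CRTH2, and so senses the product of Hpgds. It rested on 33 to 76 counts and was measured at 1.62, 1.49, 1.38 and 1.81 CPM in control replicates 1 to 4 and 3.51, 2.48, 3.19 and 2.37 CPM in IgG replicates 1 to 4. All 4 IgG libraries were above all 4 controls. The fitted log2 fold change was 0.87 ± 0.20 (SE) with a 95% interval of 0.42 to 1.32, higher in 4 of 4 pairs, at an unadjusted p of 0.00151 and an adjusted p of 0.578 by edgeR, and with the block 0.86 at 0.00384 and 0.236. Without pair 1 or without pair 3 the unadjusted p was 0.0119 and 0.0169, outside the criterion, and with the block it was 0.0191, 0.0136 and 0.0186 without pair 1, 2 or 3.

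The exons of Ptgdr2 overlap those of Ccdc86 on the other strand by 1031 of 2644 bases, and Ccdc86 had 7835 counts over the 8 libraries. Ccdc86 was higher with IgG in 4 of 4 pairs, with a log2 fold change of 0.29 (edgeR, adjusted p = 0.709). Its part in the Ptgdr2 counts was not tested. The other prostaglandin D2 receptor, Ptgdr, had 0 counts in all 8 libraries.

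Receptors for the remaining products were present for prostaglandin E2 and the cysteinyl leukotrienes and close to 0 for thromboxane and leukotriene B4. Ptger4, the EP4 receptor, was at 25.1 ± 3.75 TPM, with a log2 fold change of 0.32 (edgeR, unadjusted p = 0.0463, adjusted p = 0.692), higher in 4 of 4 pairs. Ptger2, the EP2 receptor, was at 1.10 ± 0.360 TPM with a log2 fold change of -0.40 (edgeR, adjusted p = 0.709), lower in 4 of 4 pairs. The prostacyclin receptor Ptgir was at 2.28 ± 0.836 TPM with a log2 fold change of -0.15 (edgeR, adjusted p = 0.899). The thromboxane receptor Tbxa2r had 0 to 2 counts, Ltb4r1 had 0 in every library, Ltb4r2 had 0 to 3 and Cysltr2 0 to 8, while Ptger3 had 0 to 6 and Ptgfr, the prostaglandin F2 alpha receptor, 0 to 2.

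Cysltr1, the main cysteinyl leukotriene receptor, was measured at 17.5, 14.97, 16.5 and 13.8 CPM in control replicates 1 to 4 and 30.3, 20.1, 35.6 and 10.7 CPM in IgG replicates 1 to 4. IgG replicates 1 to 3 were above all controls and IgG replicate 4 was below all of them. Its log2 fold change was 0.62 without and 0.51 with the replicate block (edgeR, adjusted p = 0.692 and 0.487). Without pair 4, a setting added after seeing the data, the blocked fit gave 0.76 with an adjusted p of 0.0490 (edgeR). In that fit 182 of 17554 genes passed at an adjusted p under 0.05. The differences of Cysltr1 within pairs 1 to 4 were 0.79, 0.42, 1.11 and -0.37 in log2 CPM, and its GC content is 36.6%. The part of the GC content and length trends in these differences was not tested.

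Ptger1, the EP1 receptor, was listed at 66.9 ± 4.55 TPM, with a log2 fold change of 0.02 (edgeR, adjusted p = 0.939). This level is uncertain, because the use of strand in counting is not given in the sources used here.

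**Figure D5:**
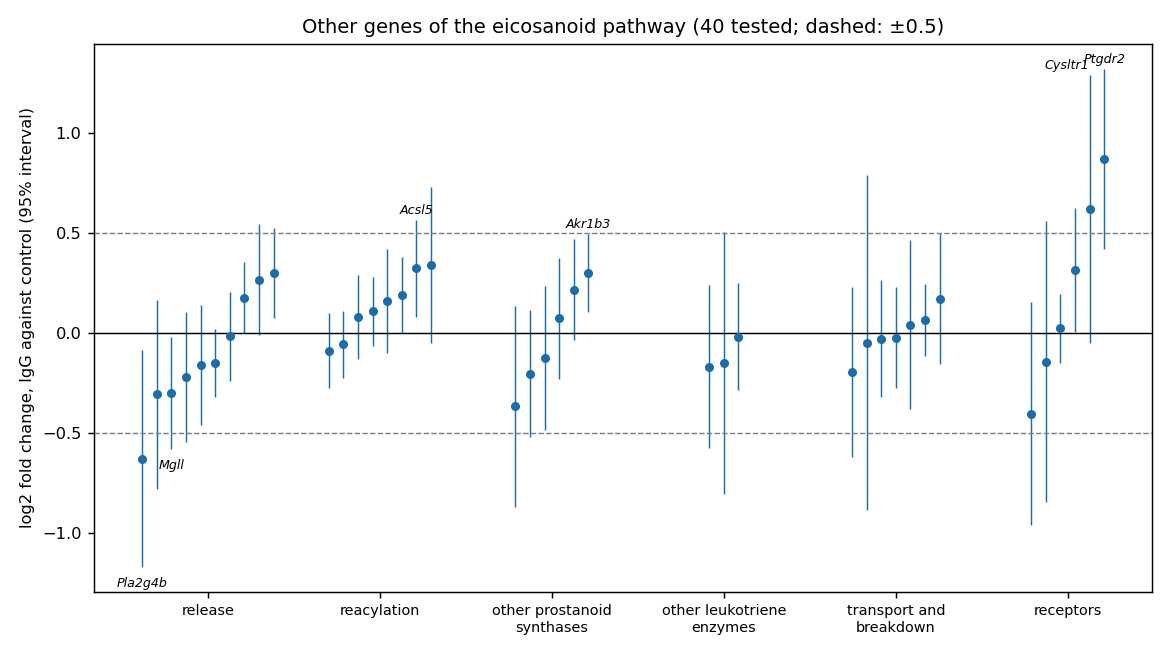
Log2 fold change, IgG against control (y axis), of the 40 tested pathway genes outside the core 10, with 95% intervals from edgeR, grouped by list and ordered by value within each. Ptgdr2 at 0.87 is the point farthest above 0 and Pla2g4b at -0.63 the farthest below.

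Among the enzymes that release or recapture arachidonic acid, 18 and 8 genes were listed, of which 10 and 8 passed the filter. In the release list 1 gene was higher and 2 were lower at an unadjusted p under 0.05, with a median log2 fold change of -0.16, and in the recapture list 2 were higher and 0 lower, with a median of 0.13, beside 7.01% called of all genes and a median of 0.00. The calls in the release list were Plaat3 (Pla2g16 in the annotation) at 0.30, a phospholipase of adipose and other tissues, Mgll at -0.30, the monoacylglycerol lipase known as a main source of brain arachidonic acid, and Pla2g4b at -0.63 (edgeR, adjusted p = 0.692 for each). Mgll was measured at 109, 114, 84.8 and 101 CPM in control replicates 1 to 4 and 79.8, 90.9, 68.1 and 92.9 CPM in IgG replicates 1 to 4. It was lower with IgG in 4 of 4 pairs while the 2 groups overlapped.

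Pla2g4b rested on 20 to 57 counts and shares 3878 exon bases with the gene model Gm28042 on its own strand, so its counts are uncertain. In the recapture list the calls were Acsl5 at 0.32 and Lpcat2 at 0.19, which attach the fatty acid to coenzyme A and to lysophospholipids (edgeR, adjusted p = 0.692 for each). With the block, Pla2g7, the platelet-activating factor acetylhydrolase, joined the release calls at 0.26 (adjusted p = 0.392) and Lpcat2 no longer passed, at a p of 0.0618. The highest transcripts of the 2 lists were Pla2g15, a lysosomal phospholipase, at 192 ± 6.15 TPM, and Acsl5 at 62.2 ± 6.72 TPM.

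Of the other prostanoid synthases, 1 of 6 tested had an unadjusted p under 0.05, against 7.01% of all genes. This was Akr1b3, an aldo-keto reductase known to make prostaglandin F2 alpha, measured at 75.4, 73.9, 72.6 and 72.1 CPM in control replicates 1 to 4 and 93.2, 79.7, 101 and 88.3 CPM in IgG replicates 1 to 4. All 4 IgG libraries exceeded all 4 controls, with a log2 fold change of 0.30 and a 95% interval of 0.11 to 0.50 (edgeR, unadjusted p = 0.00643, adjusted p = 0.692). Ptges3, the cytosolic prostaglandin E synthase that also serves as the co-chaperone p23, was at 62.6 ± 5.41 TPM and 25.5 to 45.2 times Ptges, and Ptges2 at 6.20 ± 0.818 TPM was 2.79 to 4.83 times Ptges. Their log2 fold changes were 0.22 and 0.07 (edgeR, adjusted p = 0.693 and 0.886).

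Ptgds, the other prostaglandin D synthase, known from oligodendrocytes and meninges, was at 5.89 ± 1.64 TPM, and Hpgds exceeded it by 8.33 to 24.1 times. Its log2 fold change was -0.37 with a 95% interval of -0.87 to 0.14 (edgeR, adjusted p = 0.707). Summed markers of oligodendrocytes were at 1198 to 1826 CPM in control and 1027 to 1716 CPM in IgG libraries. Those of fibroblasts were at 673 to 1272 CPM and 591 to 857 CPM. Without the block, 0 of 9 oligodendrocyte and 0 of 5 fibroblast markers tested had an unadjusted p under 0.05 (edgeR), against 7.01% of all genes. The fibroblast sum was nearly all Fn1, at 665.5 to 1266 CPM in control and 586 to 851 CPM in IgG libraries, and Col1a1, Col1a2, Col3a1 and Pdgfrb were at 0.258 to 3.68 CPM. With the block, the oligodendrocyte marker Olig2 had a log2 fold change of -0.50 (edgeR, unadjusted p = 0.00376, adjusted p = 0.235) and Fn1 of -0.39 (edgeR, unadjusted p = 0.0127, adjusted p = 0.367), while the other 4 fibroblast markers tested were at 0.44 (Col1a1), 0.14 (Col1a2), 0.02 (Col3a1) and 0.05 (Pdgfrb). The part of these cells in the Ptgds level was not tested.

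Of 13 other lipoxygenase and cysteinyl leukotriene genes, 3 passed the filter: Mgst3 at 52.6 ± 11.9 TPM, Mgst1 at 32.4 ± 11.6 TPM and Dpep2 at 39.4 ± 6.17 TPM, whose symbol has 2 overlapping gene models in the annotation. All 3 had log2 fold changes under 0, of -0.17, -0.15 and -0.02, and 0 had an unadjusted p under 0.05 by edgeR, against 7.01% of all genes. The 6 other lipoxygenases, Alox12, Alox12b, Alox12e, Alox15, Alox8 and Aloxe3, were at 0 to 7 counts in every library. Mgst3, a microsomal transferase that can also make leukotriene C4, was 15.7 to 26.5 times the level of Ltc4s per length. Mgst2, of the same list, was at 6 to 19 counts, did not pass the filter and was 0.0335 to 0.163 times Ltc4s.

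Of the 50 tested genes, 10 members and 40 from the lists, the labelled dates differed for Mgst1 alone (edgeR, adjusted p = 0.0269 for the 3 date terms). It was measured at 26.0, 40.6, 22.3 and 45.8 CPM in control replicates 1 to 4 and 20.4, 33.0, 21.8 and 45.9 CPM in IgG replicates 1 to 4, higher in replicates 2 and 4 than in 1 and 3 of both groups. Summed oligodendrocyte markers had the same split, at 1198, 1826, 1236 and 1650 CPM in control replicates 1 to 4. So did summed astrocyte markers, at 174, 199, 187 and 197 CPM, and neuron markers, at 42.8, 60.3, 52.7 and 69.5 CPM, in these controls. Each of these sums kept the split in IgG libraries, whereas fibroblast and endothelial sums had it in controls only. The part of any of these cells in the Mgst1 level was not tested, and the call was lost without pair 2, 3 or 4.

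Of 9 transport and breakdown genes 7 passed the filter. By edgeR 0 of 7 had an unadjusted p under 0.05 without or with the block, against 7.01% and 10.2% of all genes. Hpgd, the dehydrogenase that inactivates prostaglandins, had the highest level per length of the members and the listed pathway genes, at 266 ± 48.5 TPM, and was 3.30 to 4.72 times Hpgds. Its log2 fold change was 0.04 with a 95% interval of -0.38 to 0.46 (edgeR, adjusted p = 0.956).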

How the data were processed

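Microglial RNA was sequenced by the authors in 4 control and 4 IgG libraries (oligo(dT) selection, rRNA removal, NEBNext Ultra kit, NovaSeq6000). The deposited table holds raw counts, as whole numbers, for each Ensembl identifier, made by the authors from filtered reads aligned to mm10. The submitters' processing notes name HISAT2 2.2.1, SAMtools 1.12, Picard 2.26.3, featureCounts, R 4.1.2, edgeR 3.36.0 and GRCm38. Annotation, strand setting and treatment of multiply aligned reads are not given in the sources used here, so genes with overlapping exons are uncertain.

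Symbols, exon lengths and coordinates came from GENCODE M21, which held 55144 of 55385 identifiers. TMM scaling and the filterByExpr filter on low counts left 17537 genes. Groups were compared by edgeR 4.0.16 (quasi-likelihood, no other term; R 4.3.3), and p-values were adjusted by Benjamini-Hochberg over all genes tested. CPM uses TMM-scaled library sizes and serves to compare libraries. TPM divides counts by the merged length of all annotated exons of a gene and serves to compare genes. That length can exceed the length of the transcripts expressed, so orders, ratios and shares between genes depend on it. Differences within pairs are of log2 CPM with a prior count of 2. The computation was tested on simulated data. The members, lists, tests and alternatives were chosen with earlier results of these data known.

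Same-numbered libraries share a date in the labels, whose meaning is not given there. Their deviations from the group means correlated at 0.44, 0.36, 0.25 and 0.31 in pairs 1 to 4 over 12485 genes, against -0.37 to 0.23 for other combinations, and a fit with the replicate block was run as well. Alternatives were the block with a correction for GC content and length trends, the likelihood ratio test, DESeq2 1.42.0, limma-voom 3.58.1, 3 other scalings, 2 other filters, and each library or pair left out.

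Outside the members, the pathway genes named were those with an unadjusted p under 0.05 in either fit, the highest per length in each list, those making or sensing a member's product, and the 5 genes most like Ptges, the member with the largest fold change. Mgst1, Mgst2, Dpep2, the lipoxygenases beyond Alox5, Ccdc86 and the other genes with overlapping exons were added after their values were seen.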

Additional observations from a re-analysis of the deposited data

Results flagged for a closer look

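In 58 groups of 4 libraries, for 29 genes, 5 groups had a single library set apart from the other 3 by Dixon's test at the 95% level, where chance gives about 1 in 20. Alox5ap was at 31.2 CPM in IgG replicate 4, against 19.7 to 21.1 CPM in the other IgG libraries. Tbxas1 and Pla2g4a both stood high in control replicate 3, Tbxas1 at 119.7 CPM against 101.1 to 101.7 CPM and Pla2g4a at 30.0 CPM against 25.2 to 25.6 CPM. Ltc4s was at 1.55 CPM in control replicate 4, against 1.31 to 1.34 CPM in the other controls, on 29 to 36 counts, so a gap of this size is a few reads. Among the pathway genes, Lpcat2 was lowest in control replicate 4, at 65.3 CPM against 72.1 to 72.8 CPM.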

How the results depend on the processing

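None of the 10 genes passed at an adjusted p under 0.05 under any of the 26 alternatives, and 0 to 1 met the study's criterion when libraries or pairs were left out: Ptges without IgG replicate 2 alone. Over the whole table, by contrast, genes past the criterion numbered 148, 320 with the replicate block, 339 with block and trend correction, 255 with the likelihood ratio test and 284 with no filter. They ranged from 56 (without pair 3) to 762 (with the block, without pair 4) when libraries or pairs were left out. Genes past adjustment numbered 0, 69 with the block, 223 with block and trend correction, 43 with the likelihood ratio test and 53 with DESeq2. With the block they numbered 14, 0, 16 and 182 without pair 1, 2, 3 or 4. With no block they numbered 0 to 6 when libraries or pairs were left out, the most without IgG replicate 4. The replicate block changed no call among the 10 genes, with a log2 fold change of 0.39 for Ptges. Leaving out libraries or pairs moved the log2 fold change across 0 for Ptgs2 (-0.25 to 0.17), Tbxas1 (-0.10 to 0.023), Alox5ap (-0.10 to 0.16), Lta4h (-0.067 to 0.014), Ltc4s (-0.38 to 0.15), Ptger1 (-0.034 to 0.061), Hpgd (-0.078 to 0.16), Ptges2 (-0.043 to 0.15) and Ptgir (-0.47 to 0.10). Scaling by total counts alone, which shifted the median of all genes to -0.09, gave -0.018 for Alox5ap, -0.075 for Ptger1, -0.073 for Hpgd and -0.022 for Ptges2. Upper quartile scaling gave -0.014 for Ptger1 and -0.0048 for Hpgd, a minimum of 10 counts in every library -0.0058 for Ptger1, and the block with trend correction 0.041 for Ltc4s and -0.049 for Hpgd. Of the 40 pathway genes, 0 to 2 met the criterion and 0 to 1 passed adjustment when libraries or pairs were left out, the last being Cysltr1 at 0.76 in the blocked fit without pair 4. Labelled dates differed for 1 of the 40, Mgst1, for 6 genes with no filter and for 0 without pair 2, 3 or 4. Leaving out pairs under the block was added after seeing the data. The cause of these differences was not tested. Ptgs2, Ltc4s, Alox5 and Ptges rested on 16 to 99 counts per library, and the part of depth in the width of their intervals was not tested.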
